A study of Mus musculus with 4 samples.

Results

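Genes of the interferon pathway and genes that interferon induces were examined in the cytoplasm of mouse neuroblastoma cells depleted of the small noncoding RNA 4.5SH. The members were 41 genes listed for their role in this pathway, and a probe set was taken where the array annotation gave 1 gene symbol and that symbol was a member. This held for 64 of 45037 probe sets and for 39 of the 41 genes, beside 18193 genes on the whole array. Isg15, whose probe set also carries a second symbol, and Ifi44 were not analysed here. Of the 39 genes 37 were bright enough to be tested, while the RNA sensors Ifih1 and Zbp1 were not.

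The cells were Neuro2A, a mouse neuroblastoma line. Both arrays of the 4.5SH_KD group came from cells depleted of endogenous 4.5SH, a rodent RNA related to B1 repeats, and both arrays of the control group from cells labelled only as control. Per the labels' protocols, all cells received antisense oligonucleotides at 30 nM by lipofection, the cytoplasm was the supernatant of cells spun in CSK buffer, and biotin-labelled cRNA came from poly(A)+ RNA (200 ng). Which oligonucleotide the control received is not given there, and the level of 4.5SH itself was not analysed here, so loss of 4.5SH and other effects of the oligonucleotides cannot be told apart. The replicates are called biological in the labels, but nothing states separate cultures or days, and every p-value therefore reflects only how far these samples spread, which may be technical.

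Cells detect foreign or misplaced RNA with cytoplasmic sensors, the RIG-I-like helicases, which signal through the adaptor Mavs to transcription factors of the Irf family and so switch on interferon genes. Secreted interferon binds receptors that activate Jak kinases and Stat and Irf factors, and these bind response elements in the promoters of effector genes. Many effectors block steps of viral growth, and several sensors and factors of the pathway are themselves induced by interferon. The stated purpose of the series was to find 4.5SH targets among genes with antisense B1 elements, and its design text does not mention interferon genes.

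The median signal of all probe sets was between 17.1 and 18.3 on the 4 arrays, and the 2% trimmed mean was 128 and 132 with knockdown against 149 and 143 without. The 3' to 5' signal ratio of the Actb control probe sets was 2.47 and 2.49 against 2.60 and 2.78, that of Gapdh 0.833 and 0.787 against 0.884 and 0.861, and the part of this difference in the results was not tested. Of 15 neuroblastoma and neuron markers 12 were above the filter, led by Stmn2 with a mean signal of 3810 and Uchl1 with 2870, while the noradrenergic enzyme Th stayed at 16.2. Of 9 immune cell markers 8 were measured and 4 were above the filter. Their mean signals were 505 for Cd68, 79.6 for Cd14, 70.3 for Csf1r and 19 for Adgre1. The leukocyte antigen Ptprc, under the filter, read 0.3 to 8.1 on the 4 arrays. The summed signal of the 8 measured immune markers was 516 and 523 in the knockdown against 843 and 935 in the control. Most of it came from the lysosomal protein Cd68, which is not restricted to immune cells. Cd68 was lower, at -0.94 (adjusted p = 4.21e-07, limma). Fibroblast markers summed to 120 and 122 in the knockdown against 89.5 and 115 in the control. Endothelial markers summed to 119 and 134 against 199 and 167, and of them Pecam1 was lower, at -0.88 (adjusted p = 0.000161, limma). Of the neuron markers Elavl4 was higher, at 1.28 (adjusted p = 6.13e-05, limma), and 4 were lower. The part of these differences in the results was not tested. Precision is limited by the number of arrays.

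Response elements were looked up in the promoters of the members. Interferon acts on effector genes through such elements, so their share among the members follows from how these were chosen. The counts are a description and not a result of the arrays. Promoter sequences from RefSeq (build GRCm38.p6), reaching from 250 bases before to 50 bases after the annotated start, were found for 32 of the 41 members. Dhx58, Zbp1, Usp18, Mx1, Mx2, Ccl5, Rtp4, Parp9 and Parp14 were not matched. They were searched on both strands for GAAA, any 2 bases and GAAA again, the repeat at the core of the interferon-stimulated response element, and for TTCNNNGAA, the gamma-activated sequence bound by Stat dimers, with matches allowed to overlap. The former was present in 18 of the 32 members, against 3.44% of 32851 promoters and 3.99% of 27025 genes in the same table. The latter was present in 12 of the 32, against 8.30% of promoters and 9.55% of genes. Among members higher in the knockdown (below), 7 of 10 held the GAAA repeat and 4 of 10 TTCNNNGAA. Among members lower, 0 of 4 and 2 of 4 did, and among tested members that did not pass, 9 of 15 and 6 of 15 did. A match describes the letters of the window only.

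Stretches of 60 bases upstream of the start are shown for 6 members that rose and for Irf1, which fell, to let their matches be compared. Each is written 5′ to 3′ on the strand of the gene, with matches to either motif that lie wholly inside the stretch in capitals, and repeat matches on the opposite strand appear as their reverse complement.
Ifit1 (chr19:34640765-34640824, plus strand): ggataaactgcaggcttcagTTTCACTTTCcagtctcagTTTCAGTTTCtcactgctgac
Ifit3 (chr19:34583353-34583412, plus strand): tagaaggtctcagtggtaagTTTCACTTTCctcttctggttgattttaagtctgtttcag
Rsad2 (chr12:26456533-26456592, minus strand): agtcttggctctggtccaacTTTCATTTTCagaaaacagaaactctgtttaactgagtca
Irgm2 (chr11:58214882-58214941, plus strand): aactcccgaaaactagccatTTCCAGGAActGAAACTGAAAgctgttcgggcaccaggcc
Igtp (chr11:58199491-58199550, plus strand): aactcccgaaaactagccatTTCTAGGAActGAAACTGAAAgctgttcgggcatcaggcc
Gbp3 (chr3:142559979-142560038, plus strand): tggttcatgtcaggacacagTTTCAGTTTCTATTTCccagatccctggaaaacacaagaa
Irf1 (chr11:53769904-53769963, plus strand): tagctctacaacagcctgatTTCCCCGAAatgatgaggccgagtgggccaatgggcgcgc

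Ifit1 carries 2 separate matches to the GAAA repeat in this stretch, which begin 104 and 85 bases before the start. In Ifit3 a second match begins 122 bases before the start, runs past the end of the stretch and is therefore in lower case. In Gbp3 a pair of overlapping matches begins 45 and 39 bases before it. The stretches of the GTPase genes Irgm2 and Igtp are identical at 58 of 60 bases, and in both a match to TTCNNNGAA is followed by a GAAA repeat. Irf1 holds a match to TTCNNNGAA that begins 90 bases before the start and no GAAA repeat. Ifnar2 rose as well, and its stretch is not shown. Like Irf1 it holds a match to TTCNNNGAA, which begins 214 bases before the start, and no GAAA repeat. Oasl2 and Irf7, which rose, held neither motif in the 300 bases searched.

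Among the 37 tested members 13 were higher in the knockdown, 5 lower and 19 did not pass the threshold of 0.05 for limma's adjusted p. Ifit3, 1 of the 13, and Parp14, 1 of the 19, had control means of 11.3 and 12.0, under the filter of 16.9, and were tested only because their knockdown signals were high. Over all 11814 tested genes 9.84% were higher and 35.2% lower. The members' median log2 fold change, on the scale of log2(signal + 16), was 0.255, and that of all tested genes was -0.165. The split depended on how arrays were scaled. Quantile scaling gave 19 members higher and 4 lower, median centring (on the probe sets tested) gave 21 and 5, and spike-in scaling gave 10 and 7. Over all genes 1162 were higher and 4163 lower as deposited, and these scalings in turn gave 2096 and 2677, 2006 and 2890, and 529 and 5449. They put the median of all tested genes at -0.038, -0.034 and -0.308. In the fit of single probe sets 12 member probe sets were higher and 6 lower of 54 tested, where 9.76% and 25.8% of all tested probe sets were. Arrays of the groups did not overlap in 27 of the 37 members, with the knockdown above in 21 and below in 6, where 19.7% and 51.7% of all tested genes did so. None of the 18 called members changed direction under any of the 4 other scalings.

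Of 23 tested effectors 11 were higher and 1 was lower, with a median log2 fold change of 0.416, which is 0.581 above that of all tested genes. Both the count and the median include Ifit3, and the median also Parp14, which were tested only through their knockdown signals. On the brightest 25% of probe sets, which held neither, the median of 9 effectors was 0.272 and that of all tested genes -0.203. That subset is not free of this limit. Irgm2, with means of 194.4 in the knockdown and 67.7 in the control, entered it only through its knockdown signals. Of 11 signalling factors 2 were higher and 3 lower, with a median of 0.006. Of 3 tested sensors 1 was lower and none was higher, with a median of 0.147, and the adjusted p of Ddx58 and Eif2ak2, the other two, was 0.216 and 0.219 (limma). No test compared the classes with each other. In such bulk samples a change of RNA in every cell and a change in the number of cells that express a gene cannot be told apart.

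**Figure D1:**
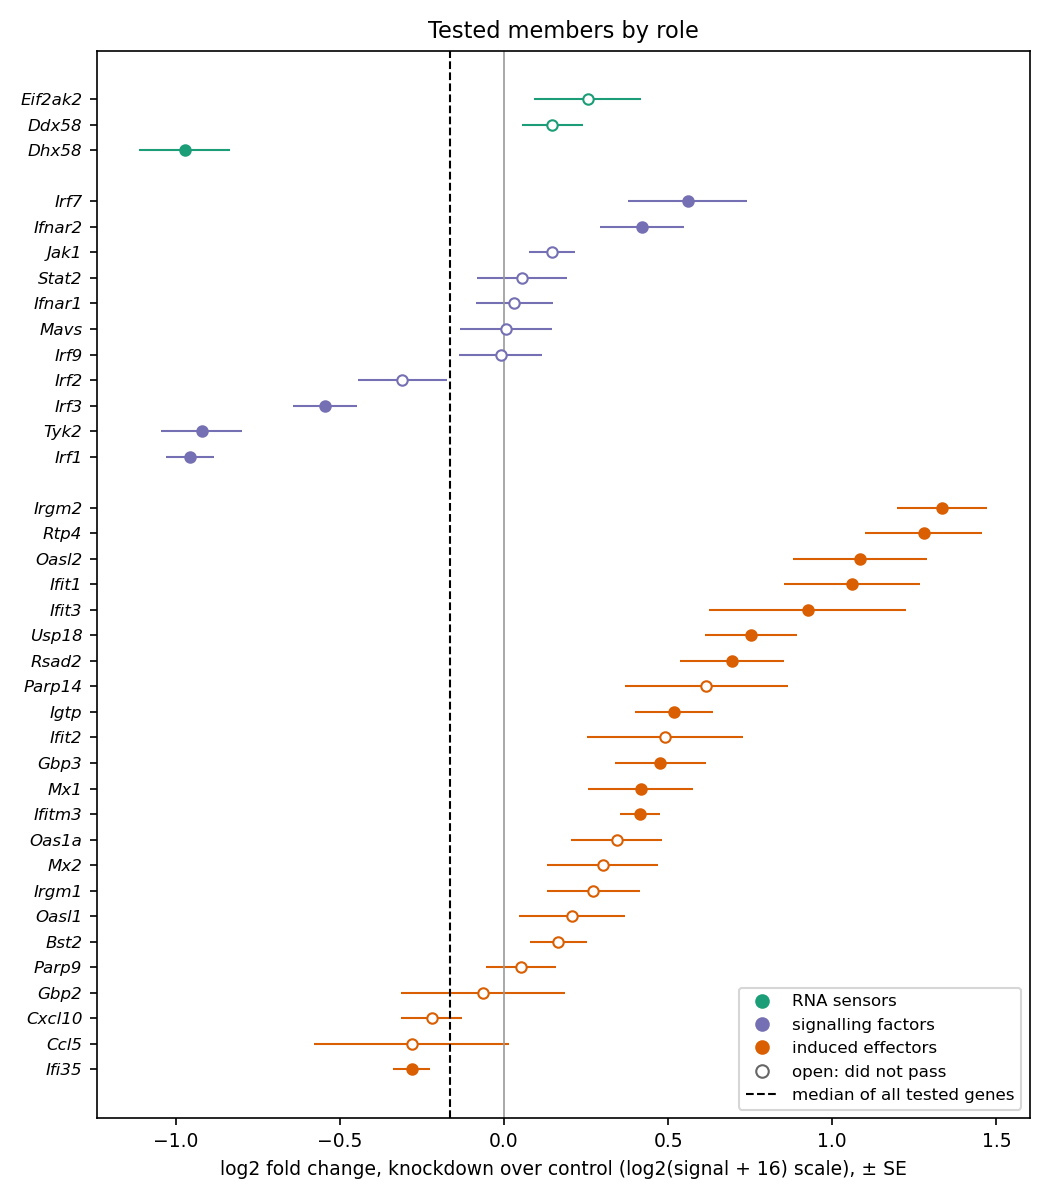
The plot gives the log2 fold change of each tested member, knockdown over control, on the scale of log2(signal + 16), with its standard error (limma, 2 against 2 arrays), grouped by role. Filled points passed an adjusted p of 0.05, open points did not, and the dashed line marks the median of all tested genes at -0.165. To its right lie 20 of 23 effectors, 7 of 11 signalling factors and 2 of 3 sensors. To its left lie the sensor Dhx58, the signalling factors Irf1, Tyk2, Irf3 and Irf2, and the effectors Ifi35, Ccl5 and Cxcl10.

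Among the sensors, Dhx58 (LGP2), a RIG-I-like helicase without a signalling domain that tunes the other two, was lower at its brightest probe set. Its signals were 86.3 and 120 in the knockdown against 211.2 and 219.9 in the control, and the groups did not overlap. The log2 fold change was -0.97 ± 0.14 (SE), with an adjusted p of 2.33e-05 (limma). Its other two tested probe sets were dim, with differences of -0.36 and -0.18 that did not pass in the fit of all probe sets, and the mean over the 3 gave -0.50. All 3 were lower in both knockdown arrays than in either control array.

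Ddx58 (RIG-I), which recognises RNA ends with a triphosphate, had 2 tested probe sets. The brighter read 335.2 and 346.2 in the knockdown against 304.4 and 307.9 in the control, and the dimmer 136.4 and 160.8 against 130.7 and 119.2. Both were above the control on both arrays, at differences of 0.15 and 0.22 that did not pass. Ddx58 passed with quantile scaling and with median centring. Eif2ak2 (PKR), a kinase that halts translation when it binds double-stranded RNA, differed by 0.26 ± 0.16 with overlapping groups. Ifih1 (MDA5), the sensor of long double-stranded RNA, was under the filter and was not tested, and its signals were 14.1 and 17.4 in the knockdown against 4.6 and 2.3 in the control. Zbp1, a sensor of Z-form nucleic acid, read 1.2 to 8.6 over its 2 probe sets and all arrays, near the bottom of the signal range.

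Of the factors downstream of the sensors, the adaptor Mavs did not pass at either probe set. Its brighter one, an _x_at design that may also bind other transcripts, read 235.8 and 288.3 in the knockdown against 215.3 and 312.5 in the control, a difference of 0.01. The other read 208.8 and 212.6 against 240.8 and 227.3, a difference of -0.14. The latter was below the control on both arrays, while the former overlapped.

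Irf3, the constitutive factor that the sensors activate, was lower at its brightest probe set, with 306.8 and 262.2 in the knockdown against 417.8 and 424.5 in the control. The log2 fold change was -0.54 ± 0.10 (adjusted p = 0.000241, limma). This probe set is of the _x_at design. The other tested one was dim and read 20.9 and 41.9 against 31.3 and 11.6, so that its groups overlapped. Without _x_at and _s_at probe sets Irf3 turned to 0.36 and did not pass (adjusted p = 0.331, limma), and the mean of both was -0.10 (adjusted p = 0.618, limma).

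Irf7, an interferon-inducible relative of Irf3 that amplifies the response, was higher. It read 75.6 and 96.4 in the knockdown against 43.2 and 64.1 in the control, without overlap, at 0.56 ± 0.18 (adjusted p = 0.0185, limma). The call was lost without knockdown replicate 2 (0.41, adjusted p = 0.188) and without control replicate 1 (0.34, adjusted p = 0.157). It was also lost without the filter on low values (adjusted p = 0.113) and without the intensity trend (adjusted p = 0.0722).

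Irf1, which binds the same response elements and is induced by interferon gamma, was lower with the smallest p of all members. Its signals were 653.8 and 648.7 in the knockdown against 1346 and 1217 in the control, so both control arrays were far above both knockdown arrays. The log2 fold change was -0.96 ± 0.07 (adjusted p = 3.78e-08, limma) at its single probe set, and it passed under every alternative. Irf2, an antagonist of Irf1, differed by -0.31 ± 0.13 with overlapping groups and did not pass (adjusted p = 0.0722, limma). It passed with spike-in scaling, at -0.45, with the replicate block, and without knockdown replicate 1 or control replicate 2. Irf9, the DNA-binding partner of Stat2, differed by -0.01, and its groups overlapped.

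At the receptor, Ifnar2 was higher at its brightest probe set, with 196.9 and 176.1 in the knockdown against 150 and 121.6 in the control. The groups did not overlap, and the log2 fold change was 0.42 ± 0.13 (adjusted p = 0.0125, limma). Its other two tested probe sets read 67.2 and 81.8 against 71 and 85.5, and 33.2 and 41.6 against 34.3 and 41.9, with overlap in both. The mean of the 3 was 0.11 and did not pass (adjusted p = 0.492, limma), and neither did Ifnar2 with spike-in scaling (0.28), without knockdown replicate 1 (0.35) or without control replicate 2 (0.28). It was lost as well without the filter on low values and without the intensity trend. The partner chain Ifnar1 differed by 0.03 ± 0.12.

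Tyk2, the kinase bound to Ifnar1, was lower at its brightest probe set. The signals were 102 and 125.1 in the knockdown against 224 and 232.8 in the control, without overlap, at -0.92 ± 0.12 (adjusted p = 1.33e-05, limma). A second, dim probe set read 23 and 24.1 against 18 and 23.9, a difference of 0.10 that did not pass, and the mean of both was -0.41 and passed (adjusted p = 0.0268, limma). Jak1, the kinase bound to Ifnar2, was above the control on both arrays at all 3 probe sets, with differences of 0.14, 0.18 and 0.33, none of which passed. Jak1 passed with quantile scaling and with median centring. Stat2 differed by 0.06 at the brighter of 2 probe sets, where it read 108.9 and 97.8 against 96.5 and 101. At the dimmer one it read 30.7 and 67.0 against 61.3 and 61.7, and the groups overlapped at both.

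**Figure D2:**
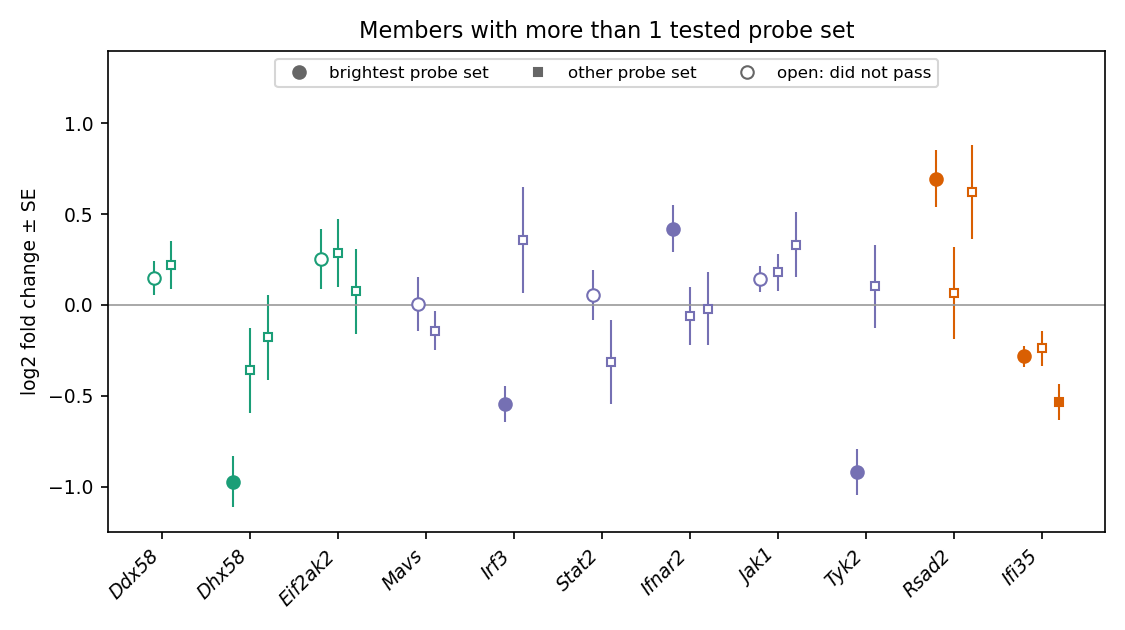
Each point is 1 tested probe set of a member that had more than 1, with its log2 fold change, knockdown over control, and standard error from the fit of all 22525 tested probe sets; circles are the brightest probe set of a gene, squares the others, and filled symbols passed. For Irf3, Tyk2 and Ifnar2 the brightest probe set passed while the others lay on the other side of 0 or near it, whereas all 3 of Ifi35 and of Dhx58 lay below 0. The Dhx58 probe set at -0.36 was tested only through its control signals.

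Among the effectors, the immunity-related GTPases act on vacuoles and membranes around intracellular pathogens. Irgm2 had the largest difference of all tested members. It read 188.6 and 200.1 in the knockdown against 60 and 75.4 in the control, at 1.34 ± 0.14 (adjusted p = 8.37e-07, limma), which is 2.52-fold on this scale. Igtp (Irgm3) read 190.4 and 183.7 against 132 and 120.1, at 0.52 ± 0.12 (adjusted p = 0.00192, limma). For both genes every knockdown array was above every control array, and neither call was lost under any alternative. Irgm1, whose promoter also holds a pair of overlapping GAAA repeats, differed by 0.27 ± 0.14, overlapped and did not pass. It passed with quantile scaling, with median centring, without knockdown replicate 1 and without control replicate 1.

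Rtp4, an interferon-induced chaperone of membrane receptors, was second in size. Its signals were 120.5 and 89.2 in the knockdown against 30.6 and 36.4 in the control, without overlap, at 1.28 ± 0.18 (adjusted p = 1.96e-05, limma). A second probe set under the filter read 18.9 and 10.3 against 1.3 and 11.7 and was not tested. With pseudocounts of 1 and 64 Rtp4 stood at 1.61 and 0.79 and passed.

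The Ifit proteins bind viral RNA that lacks host cap marks and lie in 1 cluster of related genes. Ifit1 rose from 16.8 and 20 in the control to 59.3 and 52.1 in the knockdown, at 1.06 ± 0.21 (adjusted p = 0.000497, limma). Ifit3 read 41.1 and 26.6 in the knockdown against 2.9 and 19.7 in the control, at 0.93 ± 0.30 (adjusted p = 0.0181, limma). Ifit3 passed the filter only through the knockdown arrays, so its difference and its call give no support of their own. Neither gene had overlapping groups, but the control arrays of Ifit3 were far apart. Its call was lost without control replicate 1 (0.47, adjusted p = 0.202) and without knockdown replicate 1 (0.71, adjusted p = 0.162), and also without the filter on low values or the intensity trend. Ifit2 read 29.6 and 45.1 against 26.8 and 17, at 0.49 ± 0.24, with knockdown arrays above control arrays but no pass (adjusted p = 0.105, limma). It passed with median centring and without control replicate 1. With pseudocounts of 1 and 64 in place of 16 the size was 1.55 and 0.54 for Ifit1 and 1.92 and 0.38 for Ifit3, and both passed with either.

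Some members of the oligoadenylate synthetase family make a second messenger that activates RNA decay. Oasl2 rose from 27.2 and 22.6 in the control to 57.7 and 85.6 in the knockdown, at 1.08 ± 0.20 (adjusted p = 0.000363, limma), and at 1.47 and 0.60 with pseudocounts of 1 and 64. Oas1a read 148.9 and 157.9 against 136.2 and 101.1, at 0.34 ± 0.14 (adjusted p = 0.0546, limma). Oasl1 read 66.9 and 71.3 against 58.3 and 57.2, at 0.21 ± 0.16 (adjusted p = 0.323, limma). In these 3 genes both knockdown arrays exceeded both control arrays, and Oasl2 alone passed. Oas1a passed under 6 of 17 alternatives, among them quantile scaling, the replicate block and leaving out control replicate 1.

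Usp18, which strips Isg15 from proteins and restrains receptor signalling at Ifnar2, rose from 79.3 and 71.8 to 147 and 129.7. The log2 fold change was 0.75 ± 0.14 (adjusted p = 0.000296, limma), and no alternative that measured it lost the call. Rsad2 (viperin), which makes a chain-terminating nucleotide, read 101.7 and 86.5 in the knockdown against 52.8 and 51 in the control at its brightest probe set, at 0.69 ± 0.16 (adjusted p = 0.0018, limma). Its 2 dimmer probe sets differed by 0.62, without overlap, and by 0.06, with overlap, and neither passed. Both had control means under the filter, at 10.2 and 16.8. With the mean of the 3 the value was 0.46 and missed the threshold (adjusted p = 0.0733, limma).

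Mx1 and Mx2 are dynamin-like GTPases that trap viral components. Mx1 read 96.8 and 77.7 in the knockdown against 58.7 and 63.5 in the control, at 0.42 ± 0.16 (adjusted p = 0.0434, limma), without overlap. This was the member called closest to the threshold from within, and it missed it in the fit of all probe sets (adjusted p = 0.0573). It missed it also without knockdown replicate 1 (0.28), without control replicate 1 (0.37), with spike-in scaling (0.27), without the filter on low values and without the intensity trend. Mx2 read 75.2 and 72.1 against 65 and 49.4, at 0.30 ± 0.17, and did not pass, though its groups did not overlap either. It passed with median centring.

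Guanylate-binding proteins coat the vacuoles of pathogens and help break them open. Gbp3 read 124.6 and 147.4 in the knockdown against 85.6 and 100.8 in the control, at 0.48 ± 0.14 (adjusted p = 0.0103, limma). The call was lost without knockdown replicate 2 (0.37, adjusted p = 0.128), without control replicate 1 (0.38, adjusted p = 0.0556), with spike-in scaling (0.33) and without the filter on low values. Gbp2 read 15.4 to 22.5 on all arrays at its tested probe set, close to the filter, and its groups overlapped.

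The membrane proteins Ifitm3, which blocks fusion of viruses in endosomes, and Bst2 (tetherin), which holds budding particles at the surface, were among the brighter members. Ifitm3 read 1801 and 1762 in the knockdown against 1367 and 1301 in the control. Both pairs were tight, the groups did not overlap, and the log2 fold change was 0.41 ± 0.06 (adjusted p = 3.31e-05, limma) and passed under every alternative. Bst2 read 485.8 and 450.2 against 409.5 and 421.2, at 0.17 ± 0.09, and did not pass, except with quantile scaling and with median centring.

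Ifi35, an interferon-induced leucine zipper protein, was the only effector called lower. At its brightest probe set, an _s_at design that may bind related transcripts, it read 1740 and 1801 in the knockdown against 2143 and 2168 in the control, at -0.28 ± 0.06 (adjusted p = 0.000603, limma). Its other probe sets read 236 and 267.2 against 368.1 and 373.1, and 346.9 and 393.7 against 464.6 and 415.3. All 3 were lower without overlap, by 0.28, 0.53 and 0.24 on the log2 scale, and the brightest and the second passed in the fit of all probe sets. Relative to the median of all tested genes the brightest lay at -0.12, and with quantile scaling it did not pass (-0.11, adjusted p = 0.0991, limma).

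The chemokines Cxcl10 and Ccl5, which attract T cells and are standard readouts of the response, were not among the genes called. Cxcl10 read 431 and 474.5 in the knockdown against 567.6 and 494.2 in the control, at -0.22 ± 0.09 (adjusted p = 0.0596, limma), so that both knockdown arrays lay below both control arrays. It passed as lower with spike-in scaling, on the brightest 25% of probe sets and without control replicate 2. Ccl5 was dim and its replicates were far apart, with 16.4 and 33.5 against 18.4 and 52.8, and its direction hung on single arrays. It stood at -0.78 and passed as lower without control replicate 1, at 0.22 without control replicate 2 and at 0.03 without knockdown replicate 1, neither of which passed. The ADP-ribosyltransferase genes Parp9 and Parp14 stood at 0.05 and 0.62. Parp14 read 27.1 and 26.7 in the knockdown against 11.2 and 12.8 in the control, without overlap, and lay just outside the threshold (adjusted p = 0.0521, limma), but it too was tested only through its knockdown signals. It passed under 6 of 16 alternatives, such as quantile scaling and the filter by mean log2 value.

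**Figure D3:**
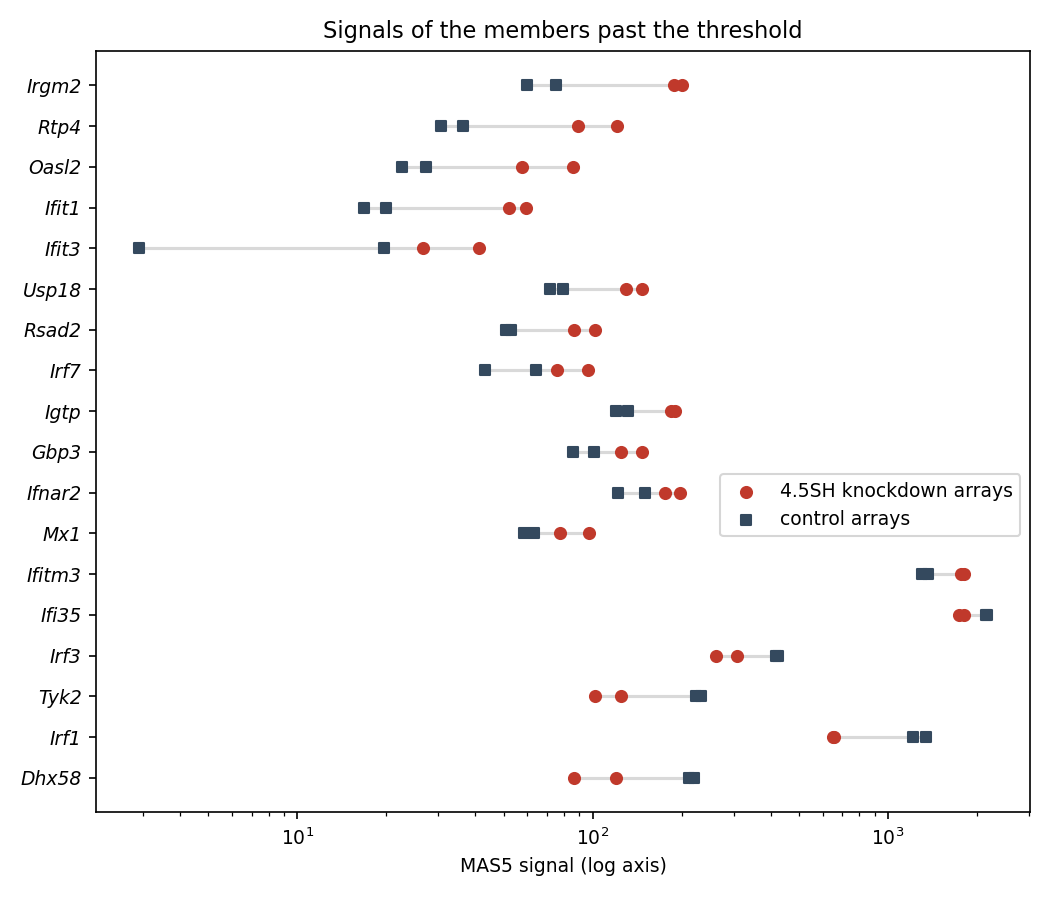
The plot gives the MAS5 signal of the 18 members past the threshold on each of the 4 arrays, on a log axis, with knockdown arrays as circles and control arrays as squares, ordered by log2 fold change. No member shown has overlapping groups; the 13 higher members had control means of 11.3 to 1334 with a median of 61.1, and the 5 lower ones control means of 216 to 2155.

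Other genes of the pathway were counted in 3 further lists, which no test compared with the members or with each other, beside 9.84% higher and 35.2% lower of all tested genes. Of 28 tested genes in a list of further interferon-induced genes 4 were higher, 8 lower and 16 did not pass, with a median of -0.03. Cmpk2, a mitochondrial nucleotide kinase gene, rose by 0.97 ± 0.15, Herc6, the mouse ligase that attaches Isg15, by 0.65 ± 0.12 and Adar, the editor of double-stranded RNA, by 0.48 ± 0.08, while Parp12, an antiviral ADP-ribosyltransferase, stood at -0.87 ± 0.14. Of 18 tested genes for interferon production and signalling 8 were lower and none was higher, with a median of -0.25. They included the interferon gamma receptor chain Ifngr2 (-1.07 ± 0.16), the feedback inhibitor Socs3 (-0.72 ± 0.09), the receptor chain Il10rb (-0.56 ± 0.07) and Tbk1, the kinase that phosphorylates Irf3 (-0.39 ± 0.07).

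Genes for antigen presentation and the immunoproteasome, which interferon gamma in particular induces, were 7 lower and 5 not passed of 12 tested, with a median of -0.28. The transporter chain Tap2 stood at -0.64 ± 0.10, the proteasome activator Psme1 at -0.47 ± 0.07, the proteasome subunit Psmb8 at -0.42 ± 0.08 and the class I heavy chain H2-D1 at -0.32 ± 0.05. Within all 3 lists 4 genes were higher and 23 lower of 58 tested, beside 9.84% and 35.2% of all genes. Quantile scaling turned this split into 8 and 13, median centring into 9 and 12, and spike-in scaling into 3 and 30.

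**Figure D4:**
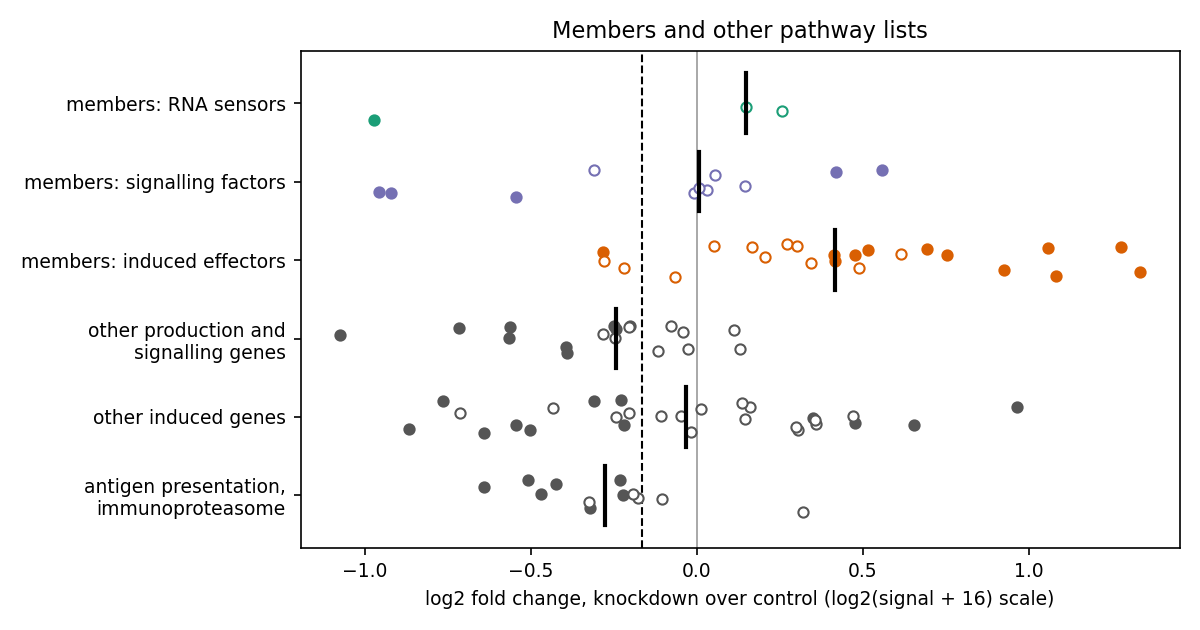
Each point is the log2 fold change of 1 tested gene, knockdown over control, in the 3 member classes and the 3 further lists; filled points passed the threshold, short vertical bars are list medians and the dashed line is the median of all tested genes at -0.165. The median bar of the effectors stands at 0.416 and includes Ifit3 and Parp14, which were tested only through their knockdown signals. Those of the further lists stand at -0.03 for induced genes, -0.25 for production and signalling and -0.28 for antigen presentation.

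**Figure D5:**
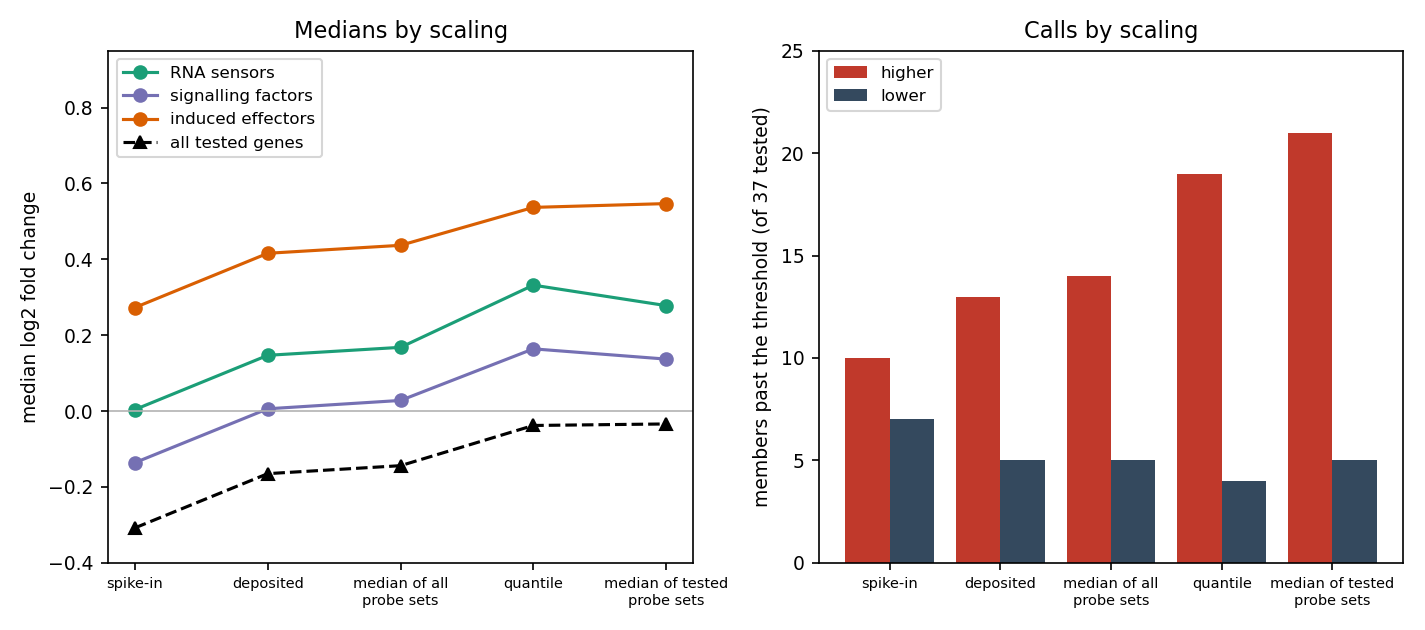
The left panel gives the median log2 fold change of each member class and of all tested genes under 5 scalings of the arrays, and the right panel the number of members past the threshold in each direction. The effectors' median, with Ifit3 and Parp14 included, stayed above 0 in all 5, from 0.273 with spike-in scaling to 0.547 with median centring. That of the signalling factors was -0.136 with spike-in scaling and above 0 in the other 4.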

How the data were processed

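Gene expression was measured on 4 arrays of cytoplasmic RNA from Neuro2A cells, 2 labelled as depleted of 4.5SH and 2 as control. The deposited values are intensities on a linear scale, 1 MAS5 signal per probe set, per the submitters' processing notes. The version, the scaling target, any filter and detection calls are not stated in those notes. Genes were named from GEO platform annotation, which can be old, updated by Entrez identifier for 34741 of 34945 probe sets with 1 symbol. A further 932 probe sets carried several symbols and 9160 none, and none of these was named.

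Values were taken as log2(signal + 16), so that folds of dim genes are understated. Probe sets with a mean signal over all 4 arrays at or above the median of 16.9 were tested, and each gene was represented by its brightest one. This left 22525 of 45037 probe sets and 11814 genes. The groups were compared by limma 3.58.1 under R 4.3.3 (lmFit and trended eBayes, two-sided, total degrees of freedom 16.7), with Benjamini-Hochberg adjustment over all tested genes, or over all tested probe sets in a second fit, at 0.05. The smallest p that an exact permutation of 2 and 2 arrays allows is 0.333, so the p-values rest on the variance that limma shares between genes. The script was tested on simulated data first.

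The members, their role classes and the other lists were chosen with earlier results of these data known. All members are named. The 4 signals are given for members past the threshold and for members whose probe sets differ in direction. Outside this rule they are also given for some further members, such as Ddx58, Ifit2, Mx2 and Cxcl10. Of each other list up to 4 genes past the threshold with the smallest p are named. The alternatives were other pseudocounts, scalings, filters and variance models, a replicate block, other rules for several probe sets of a gene, and leaving out each array. The filter by mean log2 value was chosen after the data were seen. The correlation across 22525 tested probe sets between replicate differences in the knockdown and in the control was 0.007, so the shared replicate numbers were not taken as pairs. Plots were made in Python 3.11.15 (matplotlib 3.10.9).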

Additional observations from a re-analysis of the deposited data

How the results depend on the processing

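Of the 18 called members 10 lost neither direction nor call under any alternative that measured them: Irgm2, Rtp4, Oasl2, Ifit1, Usp18, Igtp, Ifitm3, Irf1, Tyk2 and Dhx58. The other 8 lost the call under at least 1 of 17 alternatives, and of these Irf3 turned to 0.355 without _x_at and _s_at probe sets, which left a dim probe set. Of the 19 members that did not pass, 11 passed under at least 1 alternative. On the brightest 25% of probe sets 20 members remained, of which 5 were higher and 6 lower, beside 903 and 3440 of 7140 genes. The sensors' median over 2 genes was -0.413 there. Both the split and this median rest partly on members kept through 1 group only. Dhx58 and Tyk2, with knockdown means of 103.2 and 113.6, were kept only through their control signals. Irgm2, with a control mean of 67.7, was kept only through its knockdown signals. With median centring on tested probe sets 21 of 37 members were higher, beside 2006 of 11814 genes. The sensors' median was 0.332 with quantile scaling, 0.278 with median centring and 0.004 with spike-in scaling, and the signalling factors' median 0.164, 0.137 and -0.136 in the same order. Probe sets called numbered 8010, and 5286 without the filter, which tested more of them, or 5132 without the intensity trend, where the cause was not tested.

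Leaving out 1 array at a time gave 16 to 19 called members, 11 to 12 higher and 5 to 7 lower, 4180 to 5085 called genes, 5942 to 6971 called probe sets and 22 to 28 called genes of the other lists. Medians ranged from 0.047 to 0.155 for sensors, -0.098 to 0.027 for signalling factors and 0.368 to 0.458 for effectors. A lone array is then assumed to vary like the other group. With the replicate number as a block 14 members were higher and 6 lower, 5411 genes and 8522 probe sets were called, and no paired origin of the samples is stated. No detection call was available, so signals near the filter of 16.9 may be background.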

Other observations

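The members called higher included both dim and brighter ones. Of 14 tested members with a mean signal under 100 over the 4 arrays, 7 were higher and none was lower, and of these Ifit3 passed the filter on low values only through its knockdown signals. Of 23 members at or above 100, 6 were higher and 5 lower. Among all tested genes 5.82% were higher and 15.5% lower under 100, and 11.9% and 45.6% at or above it. The effectors were higher in 6 of 12 under 100 and in 5 of 11 at or above it, with Ifitm3 and Igtp among the latter. The other effectors higher at or above 100 were Irgm2, Usp18 and Gbp3, with control means of 67.7, 75.55 and 93.2. These reached 100 only through their knockdown signals, so the split gives no support of its own. By control mean alone 10 of the 13 higher members were under 100.

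Related effector genes gave different values, and the differences between them were not tested. Ifitm3 stood at 0.41 and Ifitm2 at -0.23 (1850 and 1920 in the knockdown against 2250 and 2169 in the control). Oas1a stood at 0.34 and did not pass, and Oas1b stood at -0.55, with 70.2 and 77 against 121.8 and 108. Parp12 stood at -0.87, with 64.6 and 69.5 against 145 and 126.5. Parp14 stood at 0.62 but did not pass. It was tested only through its knockdown signals, so its value gives no support of its own. These pairs were chosen after their values were seen.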
